A study of Mus musculus with 12 samples.

Results

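*Slit*, *Robo* and *Flrt* genes encode secreted and membrane proteins that guide axons and migrating neurons. They were followed here in E14.5 mouse neocortex that lacked the T-box transcription factors Tbr1, Tbr2 or both. The group was taken by gene symbol and holds 9 genes (*Slit1* to *Slit3*, *Robo1* to *Robo3*, *Flrt1* to *Flrt3*), of which 8 were measured by name among 14860 genes in all. *Slit3* has no probeset under its symbol alone and was not analysed here, and each of the other members has 1 probeset. The members, and the gene lists used below, were chosen with earlier results of these data known.

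RNA from the neocortex of single embryos was hybridized to Affymetrix Mouse Exon 1.0 ST arrays, 1 array for each embryo. Controls (n = 3) were wild type for *Tbr1* and carried *Tbr2* alleles that had not been recombined. *Tbr1* KO embryos (n = 4) were constitutive nulls, *Tbr2* cKO embryos (n = 2) had lost *Tbr2* conditionally, and *Tbr1/2* dKO embryos (n = 3) combined a null *Tbr1* with floxed *Tbr2* alleles and the *Nes11*-*Cre* driver. Nestin, whose regulatory sequences drive such Cre lines, marks neural progenitors, so that cells of other lineages in the dissected tissue keep *Tbr2*. Whole neocortex was measured, and fewer cells of a type and less RNA per cell cannot be told apart in such samples.

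Values are log2 values made by RMA, in which a difference of 1 is a doubling of the array signal, and the levels of different genes on this scale are not set against each other. Array medians lay between 8.15 and 8.25. The targeted genes followed the labels. *Tbr1* was at 9.52 to 10.06 in arrays of *Tbr1*-null embryos and at 10.88 to 11.01 in controls. *Tbr2* (gene symbol *Eomes*) was at 8.20 to 9.19 in arrays of *Tbr2*-deleted embryos and at 11.70 to 12.13 in controls. In *Tbr2* cKO, *Tbr1* was at 10.39 and 10.57, below every control (log2 fold change -0.47, adjusted p = 0.0693 by limma, not called). From these same arrays and from an earlier set, the paper reports *Tbr1* as significantly lower in *Tbr2* cKO cortex. Its threshold was p under 0.05, with no adjustment stated. The *Tbr2* cKO comparisons below are therefore not at an unchanged *Tbr1* level. Neocortical genes were present in every array, with *Lhx2* at 13.33 to 13.65, *Fezf2* at 12.73 to 12.93 and *Neurod6* at 12.32 to 13.11. Of 9 measured genes of neocortical identity, none was called in the single mutants and 4 in *Tbr1/2* dKO (*Emx2*, *Pax6*, *Bcl11b* and *Sox5*, 2 of them higher and 2 lower). Of 8 Cajal-Retzius cell genes, 2 were called in *Tbr1* KO (*Reln* and *Ebf3*), 1 in *Tbr2* cKO (*Ebf3*) and 4 in *Tbr1/2* dKO (*Reln*, *Ebf3*, *Ebf2* and *Nhlh2*), with changes from -2.39 to 2.94 in the last, and the part of such cells in the results below was not tested. In *Tbr2* cKO replicate 1 and *Tbr1/2* dKO replicate 1 the mean of 14 meningeal genes was 8.34 and 8.45, against 7.43 to 7.78 in the other 10 arrays. Calls below are at an adjusted p (Benjamini-Hochberg, 14860 genes) under 0.05 from 1 limma fit of the 12 arrays. Nothing beyond the embryo of origin is known of the replicates, and all 3 mutants were compared with the same 3 controls.

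Slits are secreted ligands that repel growing axons through Robo receptors. In the embryonic forebrain they steer commissural, corticofugal and thalamocortical axons, and Robo signalling also acts in cortical progenitors. Flrt proteins are leucine-rich transmembrane proteins that are shed or act at the cell surface, where they repel cells carrying Unc5 receptors and bind latrophilins at contacts between cells. Flrt3 is also known as a partner of Robo1 in thalamic axons.

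The largest change in the group was in *Robo2*, and its annotated start sites are shown for that reason. RefSeq lists 3 of them in its GRCm38.p6 table, whereas the array gives 1 value for the whole gene, so that transcripts from these starts cannot be told apart. The windows run from 250 bases before to 50 bases after each start, 5′ to 3′ on the strand of the gene, and lie at chr16:75447244-75447543, chr16:75092721-75093020 and chr16:74411776-74412075, all on the minus strand. Capitals mark the T-box half-site core GTGTGA, searched on both strands, where its reverse reads TCACAC.
*Robo2*, chr16:75447244-75447543: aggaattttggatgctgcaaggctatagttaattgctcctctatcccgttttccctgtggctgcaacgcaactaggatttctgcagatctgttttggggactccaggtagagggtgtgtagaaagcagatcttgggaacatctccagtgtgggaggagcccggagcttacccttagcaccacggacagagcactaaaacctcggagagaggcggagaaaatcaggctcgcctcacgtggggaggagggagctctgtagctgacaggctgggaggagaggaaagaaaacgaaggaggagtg
*Robo2*, chr16:75092721-75093020: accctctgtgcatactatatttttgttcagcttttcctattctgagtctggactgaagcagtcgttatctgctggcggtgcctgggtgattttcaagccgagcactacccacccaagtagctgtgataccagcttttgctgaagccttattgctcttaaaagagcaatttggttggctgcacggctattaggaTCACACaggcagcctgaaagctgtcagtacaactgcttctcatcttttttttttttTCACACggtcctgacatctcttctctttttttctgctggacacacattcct
*Robo2*, chr16:74411776-74412075: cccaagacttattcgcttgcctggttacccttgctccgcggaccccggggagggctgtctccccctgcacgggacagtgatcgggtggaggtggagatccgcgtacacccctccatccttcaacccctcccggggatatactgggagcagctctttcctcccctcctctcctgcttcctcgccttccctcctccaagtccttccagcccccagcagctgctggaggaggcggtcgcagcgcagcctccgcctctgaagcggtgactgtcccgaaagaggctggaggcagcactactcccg

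The middle window holds 2 such matches, which begin 57 bases and 1 base before the start, and both read TCACAC on the printed strand. The core occurs in 4760 of the 32851 RefSeq windows of 300 bases. The longer form GGTGTGA (reverse TCACACC), within which every match also contains the shorter core, occurs in 3.98% and in none of the *Robo2* windows. The windows of *Flrt2*, at chr12:95691976-95692275 on the plus strand, and of *Flrt3*, at chr2:140671427-140671726 on the minus strand, are shown because both genes were called in the double mutant, in opposite directions. Neither holds the core.
*Flrt2*, chr12:95691976-95692275: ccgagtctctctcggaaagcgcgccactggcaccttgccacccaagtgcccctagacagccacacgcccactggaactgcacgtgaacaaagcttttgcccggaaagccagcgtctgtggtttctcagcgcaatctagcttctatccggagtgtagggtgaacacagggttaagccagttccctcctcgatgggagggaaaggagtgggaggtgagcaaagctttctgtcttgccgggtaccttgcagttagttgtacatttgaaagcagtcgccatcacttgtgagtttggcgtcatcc
*Flrt3*, chr2:140671427-140671726: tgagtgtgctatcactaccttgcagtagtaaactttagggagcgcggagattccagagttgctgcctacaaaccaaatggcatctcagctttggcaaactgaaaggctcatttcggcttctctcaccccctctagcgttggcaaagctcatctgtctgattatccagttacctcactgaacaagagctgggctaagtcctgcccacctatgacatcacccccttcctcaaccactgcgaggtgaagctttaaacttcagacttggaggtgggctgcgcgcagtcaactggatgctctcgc

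In all, 7 of the 9 members have a window in the table, and the core was found in 1 of their 9 windows. A match of letters is a description of the sequence and shows no binding.

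*Robo2*, a Slit receptor of projection neurons and progenitors, fell strongly wherever *Tbr2* was deleted. Its log2 values were 11.97, 11.99 and 11.82 in the controls, 10.19 and 10.21 in *Tbr2* cKO, and 9.30, 9.91 and 9.41 in *Tbr1/2* dKO neocortex. All 5 *Tbr2*-deleted embryos lay below every control and every *Tbr1* KO embryo. By limma *Robo2* fell by 1.72 in *Tbr2* cKO (log2, standard error 0.22, adjusted p = 0.00484), to a signal ratio of 0.303 (95% interval 0.216 to 0.424) of control. In *Tbr1/2* dKO it fell by 2.38 (standard error 0.20, adjusted p = 6.59e-05), to a ratio of 0.19 (0.142 to 0.259). The call in *Tbr2* cKO was lost without *Tbr2* cKO replicate 1 (log2 fold change -1.71, adjusted p = 0.075), when 1 array remains in that group, and also when *Tbr1/2* dKO replicate 1 was left out with it (-1.71, adjusted p = 0.0831). The call in *Tbr1/2* dKO held without any single embryo.

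*Robo2* in *Tbr1* KO neocortex was at 12.04, 12.08, 11.41 and 11.48 in replicates 1 to 4. Replicates 1 and 2 lay above all controls and replicates 3 and 4 below them, so that the mean change of -0.17 (95% interval -0.58 to 0.23, adjusted p = 0.957) averages embryos on both sides. The mean log2 value of 16 marker genes for the cortical hem or choroid plexus was 7.66, 7.64, 8.26 and 8.43 in the same 4 arrays. Over all 12 arrays, the deviations of *Robo2* from the genotype means ran against those of this mean (r = -0.74). With that mean as a covariate, *Robo2* fell by 1.45 in *Tbr2* cKO (adjusted p = 0.00703) and fell by 2.28 in *Tbr1/2* dKO (adjusted p = 2.45e-05).

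Compared directly, *Tbr2* cKO embryos were below *Tbr1* KO embryos in *Robo2* by a log2 difference of -1.55 (standard error 0.21, adjusted p = 0.00893), and *Tbr1/2* dKO embryos were below *Tbr1* KO embryos by -2.21 (standard error 0.18, adjusted p = 0.000234). The first of these was lost without *Tbr2* cKO replicate 1 (adjusted p = 0.102) or replicate 2 (0.0792). All 3 *Tbr1/2* dKO embryos were also below both *Tbr2* cKO embryos, by -0.66 (standard error 0.22), but this difference was not called (unadjusted p = 0.0121, adjusted p = 0.606). The interaction of both deletions, that is the double mutant less the added single-mutant changes, was -0.49 (95% interval -1.12 to 0.14, adjusted p = 0.999).

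*Robo1*, the other main Slit receptor of cortical neurons, is the neighbour of *Robo2* on chromosome 16 among the genes measured. Its log2 values were 11.83, 11.98 and 11.79 in controls, 11.71 and 12.03 in *Tbr2* cKO, and 11.98, 11.32 and 11.63 in *Tbr1/2* dKO. The mutant values overlapped with those of the controls. The change was 0.01 in *Tbr2* cKO (95% interval -0.44 to 0.45) and -0.22 in *Tbr1/2* dKO (-0.62 to 0.17), intervals that do not reach those of *Robo2* in the same embryos. In *Tbr1* KO it was -0.14 (-0.51 to 0.23), with values of 12.04, 11.83, 11.59 and 11.45. None of these was called (adjusted p = 0.715 to 0.997). The intervals give the changes that these arrays allow and are not a limit of detection. At the adjusted threshold, changes beyond their ends could also go uncalled.

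*Robo3* encodes a divergent receptor of commissural axons, which in mammals has low affinity for Slits and is bound by Nell2. Its values were 7.18, 7.27 and 7.45 in controls, 8.18 and 7.72 in *Tbr2* cKO, and 7.64, 8.71 and 8.27 in *Tbr1/2* dKO. All 5 *Tbr2*-deleted embryos were above every control. The log2 fold change was 0.65 in *Tbr2* cKO (standard error 0.25, adjusted p = 0.40) and 0.91 in *Tbr1/2* dKO (standard error 0.23, adjusted p = 0.061), neither of which was called. All controls, all *Tbr1* KO embryos, *Tbr2* cKO replicate 2 and *Tbr1/2* dKO replicate 1 lie below the lowest array median of 8.15. The deposited values carry no detection call, so that the part of background in the *Robo3* values is not known. Without *Tbr1/2* dKO replicate 1, the lowest of its group, the change was 1.19 and was called (adjusted p = 0.00471). In *Tbr1* KO the values were 7.32, 7.50, 7.63 and 7.68, a change of 0.24 (standard error 0.21, adjusted p = 0.947).

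**Figure D1:**
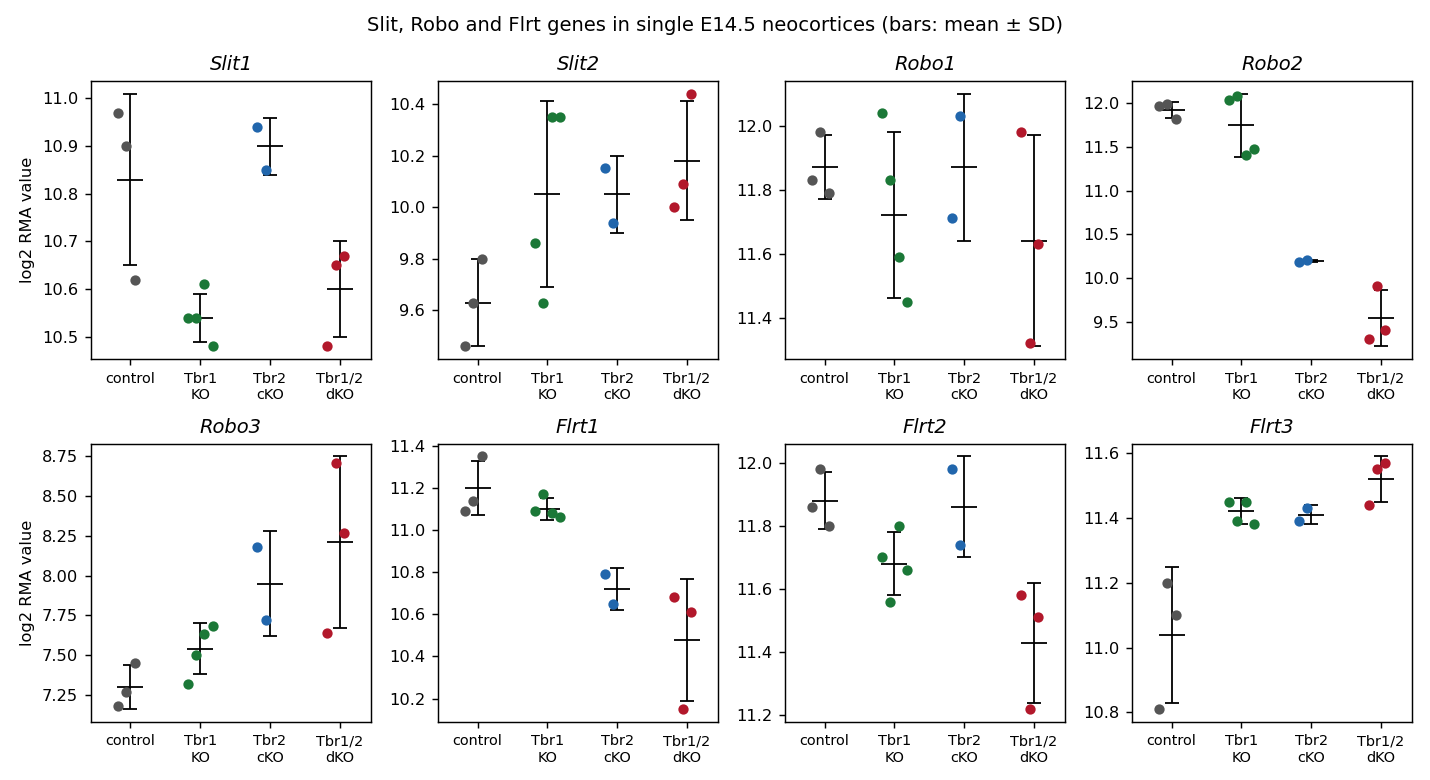
Log2 RMA values of the 8 measured genes (vertical axes, each with its own range) by genotype, with 1 point for each embryo and bars for the mean and SD. *Robo2* lies at 9.30 to 10.21 in the *Tbr2*-deleted embryos and at 11.41 to 12.08 in the others, while *Robo1* overlaps in all genotypes.

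The 3 Flrt genes were called in the double mutant, and not in the same direction. *Flrt1* and *Flrt2* fell and *Flrt3* rose in *Tbr1/2* dKO neocortex. Together with *Robo2* they made 4 of 8 measured members called there, where 3.11% of all genes were called. In *Tbr2* cKO 1 of 8 was called (*Robo2*), against 0.653% of all genes, and in *Tbr1* KO none, against 0.619%. Because the members were chosen with earlier results of these data known, these shares describe the group and are no test of an excess.

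*Flrt1*, a cell-surface protein of the same family as the Unc5 ligands, had values of 11.09, 11.14 and 11.35 in controls and of 10.68, 10.15 and 10.61 in *Tbr1/2* dKO. The groups did not overlap, and by limma *Flrt1* fell by 0.71 (log2, standard error 0.12, adjusted p = 0.00922). The call was kept without any single embryo (adjusted p = 0.00604 to 0.043), but not in a fit of the double mutant and control arrays alone (0.0947). In *Tbr2* cKO the values were 10.79 and 10.65, both below every control, with a change of -0.48 (standard error 0.14, unadjusted p = 0.0058, adjusted p = 0.24). This difference was called without *Tbr1/2* dKO replicate 2 (adjusted p = 0.0268). In *Tbr1* KO it was at 11.09, 11.17, 11.08 and 11.06, a change of -0.10 (95% interval -0.36 to 0.16). *Tbr1/2* dKO embryos were lower than *Tbr1* KO embryos by a difference of -0.62 (standard error 0.12, adjusted p = 0.0312), a call lost without any one *Tbr1* KO embryo (0.0667 to 0.0884), without *Tbr1/2* dKO replicate 3 (0.055) and without control replicate 2 (0.0548). It was also lost with the replicate number as a block (adjusted p = 0.0956), and same-numbered embryos of these 2 genotypes deviated together. Deviations of *Flrt1* from the genotype means followed those of the meningeal mean (r = 0.67 over 12 arrays), and with that mean as a covariate *Flrt1* fell by 0.83 in the double mutant (adjusted p = 0.00347).

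*Flrt2*, a ligand that repels cells carrying Unc5d, was at 11.86, 11.98 and 11.80 in controls and at 11.58, 11.22 and 11.51 in *Tbr1/2* dKO. It fell there by 0.45 (standard error 0.10, adjusted p = 0.0432), with all 3 embryos below the controls. The adjusted p was 0.0381 to 0.0477 without either *Tbr2* cKO embryo or *Tbr1/2* dKO replicate 1 and 0.0516 to 0.173 without each of the other 9 embryos, and it was 0.147 in a fit of the double mutant and control arrays alone. Deviations of *Flrt2* from the genotype means followed the hem and choroid plexus mean (r = 0.60 over 12 arrays), and with that mean as a covariate *Flrt2* fell by 0.49 (adjusted p = 0.0205). In *Tbr2* cKO the values were 11.98 and 11.74, at the top of the controls and just below them (change -0.02, 95% interval -0.28 to 0.24). In *Tbr1* KO they were 11.70, 11.56, 11.80 and 11.66, with a change of -0.20 (95% interval -0.41 to 0.01, adjusted p = 0.803), and all 4 lay below the controls, though the highest of them and the lowest control both round to 11.80. The *Tbr1/2* dKO embryos were below both *Tbr2* cKO embryos by a difference of -0.43 (standard error 0.12, unadjusted p = 0.00366), which was not called (adjusted p = 0.476).

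*Flrt3*, a partner of Robo1, Unc5b and latrophilins, was higher in every mutant embryo than in any control. The values were 10.81, 11.20 and 11.10 in controls, 11.45, 11.39, 11.45 and 11.38 in *Tbr1* KO, 11.39 and 11.43 in *Tbr2* cKO, and 11.44, 11.55 and 11.57 in *Tbr1/2* dKO. The SD was 0.04, 0.03 and 0.07 in the mutants, in this order, and 0.21 in controls. In the double mutant *Flrt3* rose by 0.48 (log2, standard error 0.09, adjusted p = 0.0124). The log2 fold change of 0.38 in *Tbr1* KO (standard error 0.08, adjusted p = 0.0997) and of 0.38 in *Tbr2* cKO (standard error 0.10, adjusted p = 0.17) was not called. All 3 comparisons use the same controls, of which replicate 1 was the lowest, and without it the changes were 0.27, 0.26 and 0.37, with the *Tbr1/2* dKO value still called (adjusted p = 0.0196). That call was lost without *Tbr1/2* dKO replicate 3 (0.0533) and with the double mutant and control arrays fitted alone (0.119). In *Tbr1* KO the change was called with a trended and robust prior (0.0492) and among genes above the median mean (0.04995).

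**Figure D2:**
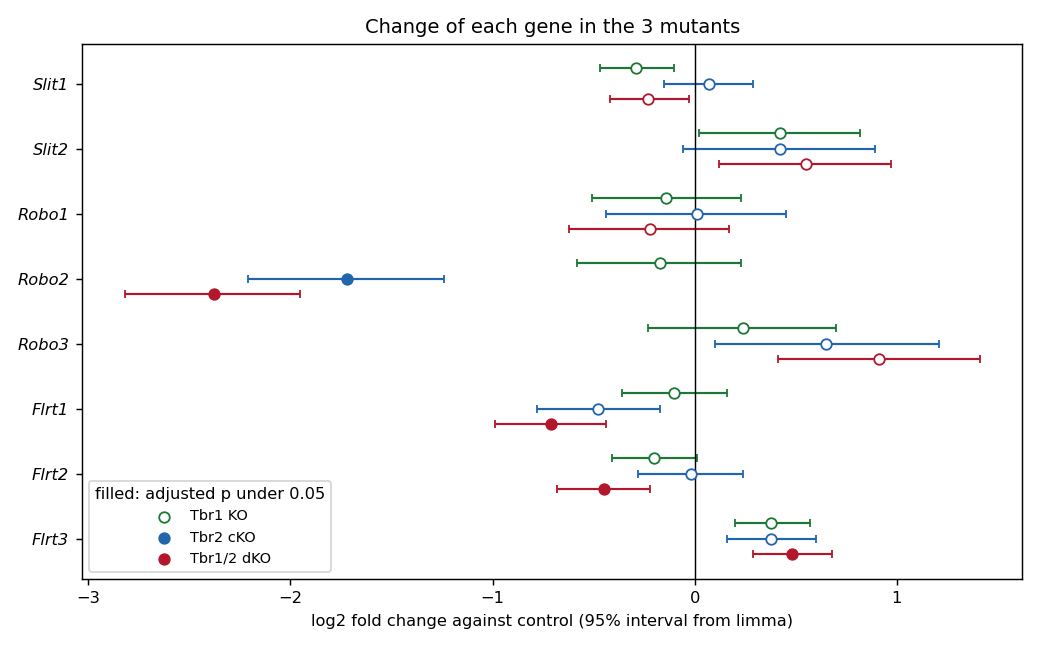
Log2 fold change from control of each gene in the 3 mutants (horizontal axis) with its 95% interval from limma; filled points have an adjusted p under 0.05. *Robo2* stands at -1.72 (*Tbr2* cKO) and -2.38 (double mutant), and the 3 Flrt genes are filled in *Tbr1/2* dKO at -0.71, -0.45 and 0.48.

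**Figure D3:**
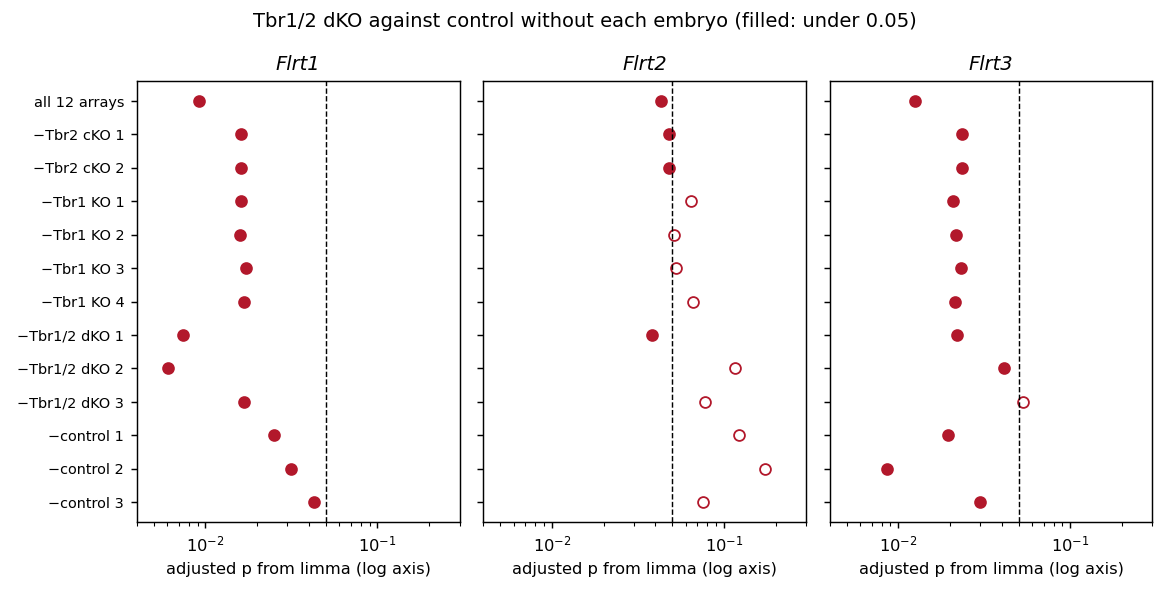
Adjusted p from limma (log axis) of the *Flrt* genes in *Tbr1/2* dKO against control, with all 12 arrays and without each embryo in turn; the dashed line is 0.05 and filled points lie below it. *Flrt1* stays at 0.00604 to 0.043, *Flrt3* passes the line once, at 0.0533, and *Flrt2* lies between 0.0381 and 0.173.

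Neither measured Slit ligand was called in any mutant. *Slit1*, which is expressed by cortical neurons and the septum, was at 10.97, 10.90 and 10.62 in controls. It was at 10.54, 10.54, 10.61 and 10.48 in *Tbr1* KO, all below the controls, at 10.94 and 10.85 in *Tbr2* cKO and at 10.48, 10.65 and 10.67 in *Tbr1/2* dKO. Thus both *Tbr1*-null genotypes had lower means, with changes of -0.29 (standard error 0.08, unadjusted p = 0.00605, adjusted p = 0.341) and -0.23 (standard error 0.09, unadjusted p = 0.0294, adjusted p = 0.315). The change in *Tbr2* cKO was 0.07 (95% interval -0.15 to 0.29). Control replicate 3 was the lowest of its group and lay within the range of *Tbr1/2* dKO.

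*Slit2*, a midline ligand for Robo1 and Robo2, was at 9.46, 9.63 and 9.80 in controls, 9.86, 9.63, 10.35 and 10.35 in *Tbr1* KO, 10.15 and 9.94 in *Tbr2* cKO, and 10.00, 10.09 and 10.44 in *Tbr1/2* dKO. All embryos of the last 2 genotypes were above the controls. The changes were 0.42 in *Tbr1* KO (standard error 0.18, adjusted p = 0.728), 0.42 in *Tbr2* cKO (standard error 0.22, adjusted p = 0.573) and 0.55 in *Tbr1/2* dKO (standard error 0.19, unadjusted p = 0.0162, adjusted p = 0.227). *Slit2* followed the mean of the 16 hem and choroid plexus genes across the 12 arrays (r = 0.69, and 0.76 for the deviations from the genotype means), where all points share the normalization. That mean was 7.40 to 8.17 in controls, 7.64 to 8.43 in *Tbr1* KO, 8.85 and 7.87 in *Tbr2* cKO and 7.59 to 8.23 in *Tbr1/2* dKO, and none of the 16 genes was called in any mutant. With it as a covariate the *Slit2* changes were 0.32, 0.14 and 0.44.

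**Figure D4:**
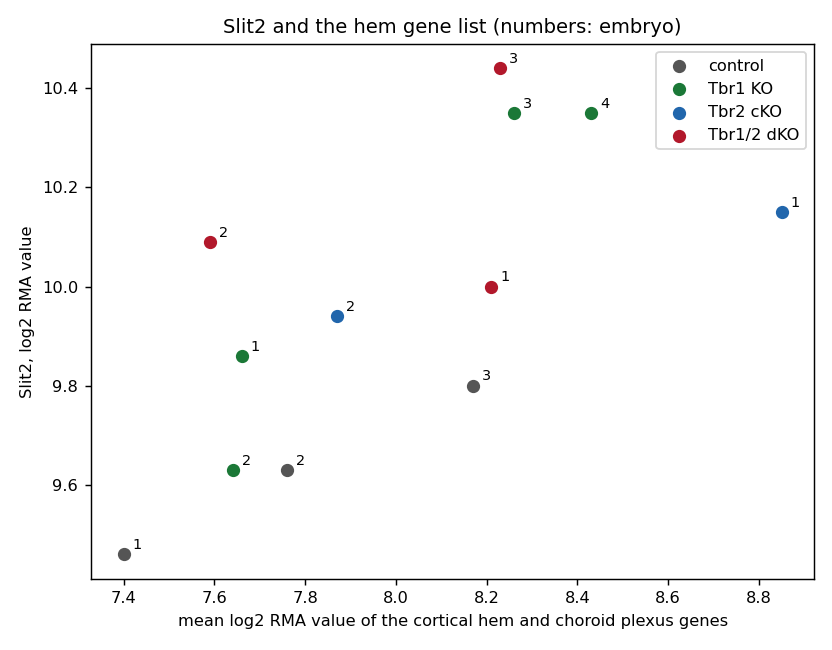
*Slit2* (vertical axis, log2 RMA value) against the mean log2 RMA value of 16 cortical hem and choroid plexus genes (horizontal axis), with 1 numbered point for each embryo coloured by genotype. *Tbr1* KO replicates 1 and 2, at 7.66 and 7.64 on the horizontal axis, have *Slit2* at 9.86 and 9.63, and replicates 3 and 4, at 8.26 and 8.43, have it at 10.35.

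For direct targets of Tbr1 or Tbr2 the study required binding and p under 0.05, with no adjustment stated, in this or an earlier microarray set. At an unadjusted p under 0.05 in these arrays alone, 3 of 8 members passed in *Tbr1* KO (*Slit1*, *Slit2*, *Flrt3*), 4 in *Tbr2* cKO (*Robo2*, *Robo3*, *Flrt1*, *Flrt3*) and 7 in *Tbr1/2* dKO (all but *Robo1*). Of all genes 6.51%, 10.0% and 12.3% passed it. The arrays did not overlap with the controls in 3, 5 and 6 of the members, against 7.49%, 28.9% and 17.1% of all genes. Between the mutants, 1 of 8 members was called for *Tbr2* cKO against *Tbr1* KO (*Robo2*; 0.585% of all genes), 2 for *Tbr1/2* dKO against *Tbr1* KO (*Robo2* and *Flrt1*; 1.24%) and none for *Tbr1/2* dKO against *Tbr2* cKO (0.108%). At an unadjusted p under 0.05 these 3 comparisons held 3, 4 and 3 of 8 members, against 12.5%, 10.9% and 6.22% of all genes. The last of them held *Slit1*, *Robo2* and *Flrt2*, all lower in the double mutant. The interaction was called for no member (0.0269% of all genes). It came nearest in *Flrt3*, at -0.28 (95% interval -0.56 to 0.01, adjusted p = 0.999).

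The receptors that Flrt proteins bind were examined next, in a list chosen, like the members, with earlier results of these data known. Of 7 listed Unc5 and latrophilin genes, all measured, 1 fell and none rose in each genotype without *Tbr2*, and *Tbr1* KO had no call. The gene that fell was *Unc5d*, the Flrt2 receptor of cells in the subventricular zone and of upper-layer neurons. Its values were 10.96 to 11 in controls, 9.12 and 8.86 in *Tbr2* cKO, and 8.31, 8.37 and 8.25 in *Tbr1/2* dKO, with no overlap. It fell by 1.99 (standard error 0.10, adjusted p = 8.85e-06) and fell by 2.67 (standard error 0.09, adjusted p = 1.15e-07). *Tbr1* KO embryos, at 10.54, 10.78, 10.45 and 10.58, were also below the controls, by -0.39 (standard error 0.08, adjusted p = 0.0926). The medians of the 7 genes were -0.10, -0.14 and -0.24 in the 3 mutants, against -0.005, -0.013 and 0.011 over all genes. *Unc5b*, the receptor that Flrt3 binds, differed by -0.24, 0.00 and -0.24 in *Tbr1* KO, *Tbr2* cKO and *Tbr1/2* dKO (adjusted p = 0.136, 0.992 and 0.0579). *Unc5a* (-0.44 and -0.37 in *Tbr2* cKO and *Tbr1/2* dKO, adjusted p = 0.115 and 0.065) and *Unc5c* (0.18 and 0.56, adjusted p = 0.875 and 0.235) are further netrin receptors. All 3 are named after their values were seen, and none was called.

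*Unc5d* was also the gene most like *Robo2* over the 12 arrays (Pearson r = 0.98), followed by the cadherin *Cdh8* (0.95) and *E130006D01Rik* (0.95). The arrays fall into those with and without *Tbr2*, so that these values mostly describe that step. The genes most like *Flrt1* were *Mgat5b* (0.972), *Galnt17* (0.963) and *Tmem50b* (0.961), those most like *Flrt2* were *Reln* (0.91), *Frmd4b* (0.883) and *Xpr1* (0.873), and those most like *Flrt3* were *Pxylp1* (0.936), *Crabp1* (0.889) and *Prkd1* (0.889). They were ranked among all 14860 genes by the same measure over the same arrays. Genotype means were not removed, so that these values also hold the differences between genotypes.

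**Figure D5:**
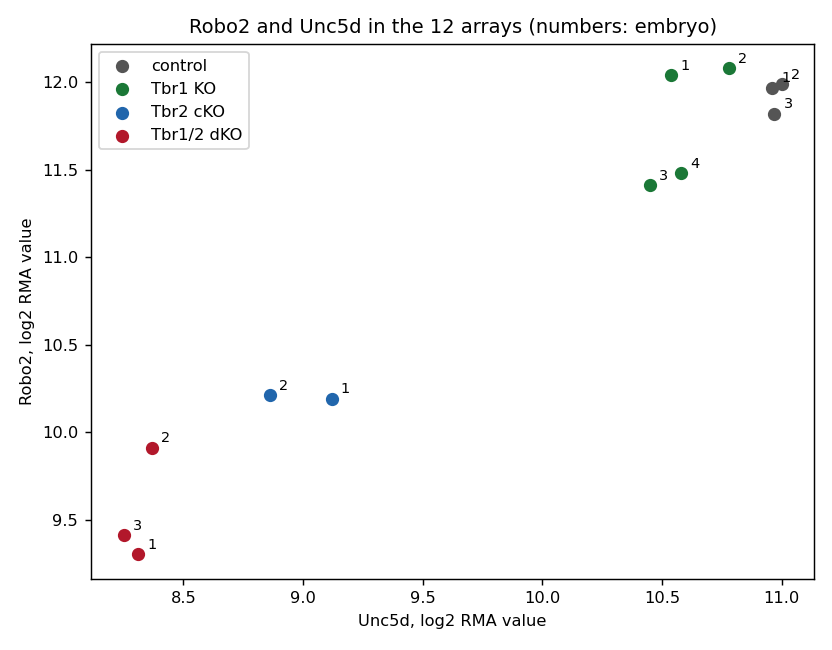
*Robo2* (vertical axis) against *Unc5d* (horizontal axis), both as log2 RMA values, with 1 numbered point for each embryo coloured by genotype. The 5 *Tbr2*-deleted embryos lie at 8.25 to 9.12 in *Unc5d* and 9.30 to 10.21 in *Robo2*, apart from the other 7.

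Among 14 of 15 listed genes of other Robo ligands, paralogs, Slit co-receptors and the netrin system, 1 rose and none fell in each genotype without *Tbr2*. *Tbr1* KO had no call. Here too 0.653% of all genes were called in *Tbr2* cKO and 3.11% in *Tbr1/2* dKO. *Dcc*, the netrin receptor whose cytoplasmic part is bound by Robo1, was at 12.13, 12.32 and 12.07 in controls, 12.66 and 12.70 in *Tbr2* cKO and 12.67, 12.38 and 12.61 in *Tbr1/2* dKO. It rose by 0.51 (standard error 0.10, adjusted p = 0.041) and by 0.38 (standard error 0.09, adjusted p = 0.0365). Without a single embryo each of these calls was kept in 3 of 12 cases (adjusted p up to 0.267 and 0.144). Both were also lost with the meningeal mean as a covariate (0.136 and 0.106), with the hem and choroid plexus mean as a covariate (0.144 and 0.0667), with only the groups compared (0.131 and 0.20) and without both arrays of the highest meningeal mean (0.286 and 0.172). Of the uncalled genes, 3 are named after their values were seen. The Robo3 ligand *Nell2* was 0.17 and 0.25 above control in the same mutants (adjusted p = 0.461 and 0.0879). *Dscam*, a cell adhesion receptor, was lower by a log2 difference of -0.48 and -0.73 (adjusted p = 0.487 and 0.0772). *Robo4*, the endothelial paralog, differed by 0.09 and 0.06 (adjusted p = 0.798 and 0.853). The list medians were -0.02, 0.02 and 0.05 in *Tbr1* KO, *Tbr2* cKO and *Tbr1/2* dKO.

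Of 17 listed genes that carry the Robo signal inside the cell, 12 were measured. *Srgap1*, *Srgap2*, *Sos2*, *Abl2* and *Pak1* were not measured by name. Among the 12, 1 fell, in *Tbr1/2* dKO alone, where 3.11% of all genes were called. The gene was *Nck2*, an adaptor between guidance receptors and the cytoskeleton. *Nck2* was at 11.42, 11.37 and 11.37 in controls and at 11.14, 11.01 and 11.15 in the double mutant (fell by 0.29, standard error 0.06, adjusted p = 0.0267). It was also below all controls in *Tbr1* KO (-0.20, adjusted p = 0.314) and in *Tbr2* cKO (-0.30, adjusted p = 0.0913), and no difference between mutants was called. Its call in *Tbr1/2* dKO was lost without *Tbr1/2* dKO replicate 2 (0.0818) or without control replicate 1, 2 or 3 (0.113, 0.0768 and 0.0629). It was also lost with the meningeal mean (0.0713) or the hem and choroid plexus mean (0.0505) as a covariate, with only the groups compared (0.122) and without both arrays of the highest meningeal mean (0.0607). *Srgap3*, a GTPase-activating protein that binds Robo and was likewise picked afterwards, differed from control by -0.07, 0.04 and -0.06 in the 3 mutants (adjusted p = 0.848 to 0.957). The list medians were -0.03, 0.02 and -0.02.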

How the data were processed

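Neocortex of 12 single embryos was profiled on Affymetrix Mouse Exon 1.0 ST arrays. The values are on the log2 scale, as deposited, after RMA by the authors with the R package oligo. Its version, like that of the probeset annotation, was not given in the sources used here. Of 23332 probesets, 14996 carry 1 symbol, 1019 several and 7317 none. Those with 1 symbol gave 14860 genes, the brightest probeset standing for a gene with several. Groups came from the genotype labels. The replicates are separate embryos, and no 2 arrays agreed like copies (highest r = 0.9938). Limma 3.58.1 in R 4.3.3 (lmFit and eBayes, 8 residual and 2.89 prior degrees of freedom) was fitted once over 4 genotypes, with Benjamini-Hochberg adjustment over all genes. The fit was tried on simulated data, for *Tbr1/2* dKO against control only and with changes larger than those of the *Flrt* genes. Smaller changes and the comparisons of *Tbr2* cKO were not tried. Same-numbered embryos deviated together in all 3 pairs only between *Tbr1* KO and *Tbr1/2* dKO (r = 0.18, 0.19 and 0.38), a hint from the data and not from the labels. Array values carry no read depth, so the number of arrays limits the precision. Named genes were all members, up to 4 called genes in each pathway list with the largest change, the 3 genes most like each called member, and the targeted genes. Members and lists were chosen with earlier results of these data known. Promoter windows came from RefSeq (GRCm38.p6). Alternatives varied the probeset rule, dim-gene filter, normalization, prior, array weights, arrays fitted, replicate number, marker covariates, threshold and each embryo. Averaging over probesets could not change a member's values, as each measured member has 1 probeset. Leaving out both arrays with the highest meningeal mean was chosen after seeing the data.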

Additional observations from a re-analysis of the deposited data

How the results depend on the processing

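The number of called members against control was 0 for *Tbr1* KO, 1 for *Tbr2* cKO and 4 for *Tbr1/2* dKO, and 1, 2 and 0 for *Tbr2* cKO against *Tbr1* KO, *Tbr1/2* dKO against *Tbr1* KO and *Tbr1/2* dKO against *Tbr2* cKO. At an unadjusted p under 0.05 these counts were 3, 4, 7, 3, 4 and 3, against 6.51%, 10.0%, 12.3%, 12.5%, 10.9% and 6.22% of all genes. In *Tbr1* KO the count was 1 (*Flrt3*) with genes above the median mean and with the trended and robust prior. With only the groups compared in the fit it was 1 (*Robo2*) both for *Tbr1/2* dKO against control and for *Tbr1/2* dKO against *Tbr1* KO. With both arrays of the highest meningeal mean left out it was 0 for *Tbr2* cKO against control and 0 against *Tbr1* KO. Leaving out 1 embryo gave, against control, 0 for *Tbr1* KO, 0 to 2 for *Tbr2* cKO and 2 to 5 for *Tbr1/2* dKO, and 0 to 1, 1 to 3 and 0 between the mutants in the order above. The low of 2 came without *Tbr1/2* dKO replicate 3, and the low of 0 in *Tbr2* cKO without its replicate 1. The interaction had 0 calls under all 24 alternatives run for it. The cause of these changes was not tested. Fits without an embryo or with only the groups compared also hold fewer arrays.

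Over all genotypes same-numbered embryos did not deviate together in every pair (r from -0.12 to 0.38, 6 of 15 pairs over 0.1, and 5 of 12 arrays closest to one of their own number). All 3 pairs of *Tbr1* KO and *Tbr1/2* dKO were over 0.1, and in no other comparison were all pairs. With the replicate block 1 member was called for *Tbr1/2* dKO against *Tbr1* KO (*Robo2*). In *Tbr1/2* dKO against control *Flrt2* was no longer called with the replicate block (adjusted p = 0.0751) and *Slit2* was (0.0398). *Dcc* lost its calls in *Tbr2* cKO and the double mutant (0.17 and 0.111) and *Nck2* its call in the latter (0.0823) with the replicate block.

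Directions turned only for uncalled values near 0, in 11 cases. *Robo1* in *Tbr2* cKO was -0.01 with array weights, -0.05 with the replicate block and -0.08 with the meningeal mean as covariate, and -0.16 to 0.17 without 1 embryo. *Flrt2* in *Tbr2* cKO was 0.01 with arrays centred on their medians and -0.14 to 0.10 without 1 embryo. *Slit1* in *Tbr2* cKO was -0.04 to 0.14 and *Dcc* in *Tbr1* KO -0.01 to 0.12 without 1 embryo. Of the other gene results under an alternative, 797 kept direction and side of the threshold, 64 lost a call and 25 gained one. The 797 include results that were uncalled and stayed so, and they do not measure how firm the calls were. In *Tbr1/2* dKO against control, *Flrt2* kept its call in 3 of 12 fits without 1 embryo and *Robo2* in 12 of 12. With 2 *Tbr2* cKO arrays, leaving out 1 assumes that the lone array varies like the other groups.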

Other observations

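*Robo1* and *Robo3* moved oppositely between embryos of the same mutant genotype. Over the 12 arrays the correlation of their deviations from the genotype means was -0.90, the pair being picked from 28 pairs of members after the values were seen. *Tbr1/2* dKO replicate 2 had the lowest *Robo1* (11.32) and the highest *Robo3* (8.71) of all arrays. In controls the order was not strictly opposite, with *Robo1* at 11.83, 11.98 and 11.79 and *Robo3* at 7.18, 7.27 and 7.45. With 2 arrays, as in *Tbr2* cKO, values that differ can only move together or oppositely. The *Robo3* values of all controls, all *Tbr1* KO embryos, *Tbr2* cKO replicate 2 and *Tbr1/2* dKO replicate 1 lie below the lowest array median. The part of background in the *Robo3* values is not known. All values share 1 normalization, and no test was made of this pattern.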
